A study of Mus musculus with 6 samples.

Results

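The Ly49 receptors are the mouse family of C-type lectin-like receptors encoded by the Klra genes, and the 9 genes Klra1 to Klra9 were taken from the count table by name, out of 29393 genes in all. All 9 had at least 10 counts in each of the 6 libraries (lowest 28, for Klra4 W/O IL-10), so each of them was measured and tested. The cells were cDNT, CD4-derived double negative T cells. According to the methods, CD4+CD25- T cells from spleen and lymph nodes of CD45.1-positive C57BL/6 mice were kept with C57BL/6 mature dendritic cells and recombinant IL-2 for 7 days, and cDNT were then sorted by flow cytometry. The labels describe adult C57BL/6 mice, spleen and double negative T cells. In the group W/ IL-10 the cells were exposed to IL-10 (50 ng/ml) over 24 h, the group W/O IL-10 went without it, and each group had 3 libraries. The methods add anti-CD3/CD28 antibodies, whereas the labels call the W/O IL-10 cells unstimulated, so it is not certain that both groups received the antibodies. No source says that the libraries of a group came from separate cultures or animals, so the p-values measure only the spread between these libraries, which may be technical. W/O IL-10 replicate 1 stood apart from the others in its GC-poor genes, and Cd8a RNA was found in every library although the cells are labelled double negative.

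Ly49 receptors sit on natural killer (NK) cells and on some T cells, where they bind MHC class I molecules of other cells. Most members are inhibitory: an immunoreceptor tyrosine-based inhibitory motif (ITIM) in the cytoplasmic tail recruits the phosphatase encoded by Ptpn6. The activating members lack this motif and signal through adaptor proteins encoded by Tyrobp and Hcst. Each gene is switched on in part of the cells only, so that a population holds cells with different sets of receptors.

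The codon of the ITIM tyrosine, or the one aligned with it, is shown for all 9 members, because the results below are ordered by it. Each line gives 27 bases of coding sequence of the GENCODE M21 transcripts (GRCm38, minus strand), with codon 8 in capitals.

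Klra1: caggaggtcactTATtcaatggtgaga
Klra2: caggaggtcactTACacaactctgaga
Klra3: ccagaggtcactTACtcaactgtgaga
Klra5: ccagaggtcactTACtcaactgtgaga
Klra6: ccggaggtcactTACtcaactgtgaga
Klra7: caggaggtcactTACtcaactgtgaga
Klra9: ccggaggtcactTACtcaactgtgaga
Klra4: caggaagacactTTCtcagctgtgaga
Klra8: caggaggtcactTTCccaactatgaga

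In 7 members codon 8 was a tyrosine codon inside an ITIM, and in Klra4 and Klra8 it was a phenylalanine codon with no ITIM around it. The stretches were identical in Klra3 and Klra5 and in Klra6 and Klra9. For Klra7 the stretch lay at chr6:130231582-130231608, for Klra2 at chr6:131245291-131245317, for Klra4 at chr6:130065267-130065293 and for Klra8 at chr6:130128125-130128151. All 9 genes lie on the minus strand of chromosome 6. Klra5 to Klra1 span 129898996 to 130386874, and Klra2 stands apart at chr6:131219223-131247362.

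Compared with cDNT W/O IL-10, cDNT W/ IL-10 had more RNA of 3 inhibitory receptor genes: Klra2 (Ly49B) by 2.69-fold, Klra1 (Ly49A) by 1.91-fold and Klra7 (Ly49G) by 1.71-fold. These 3 of the 9 members were called differentially expressed, that is, at a fold change of at least 1.5 with an adjusted p-value under 0.05 in edgeR's quasi-likelihood test over all 14916 genes tested. Among all tested genes 1.45% were called in either direction and 0.778% as upregulated. Of the inhibitory genes, 6 of 7 had every W/ IL-10 library above every W/O IL-10 library, a pattern that 11.3% of all tested genes showed. In neither of the activating genes, Klra4 (Ly49D) and Klra8 (Ly49H), were the groups separate, and neither was called. All 9 log2 fold changes were above 0, with a median of 0.84, against 0.0063 for all tested genes. In whole populations of cells, more cells with a receptor and more RNA per cell cannot be told apart.

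Klra7 encodes Ly49G, an inhibitory receptor for MHC class I of the H2-D type, and was the most abundant member in every library (ENSMUSG00000067599, chr6:130218605-130233322). Its level was 80.1, 121 and 126 CPM (counts scaled to a common library total with edgeR's TMM factors) W/O IL-10 and 202, 175 and 181 CPM W/ IL-10, given in the order of replicates 1, 2 and 3 here and below. The groups did not overlap, and W/O IL-10 replicate 1 stood lowest. The means were 109 ± 25.0 and 186 ± 14.3 CPM (SD, n = 3 each), a log2 fold change of 0.77 (SE 0.16, adjusted p = 0.0447 in edgeR's test). Klra7 was not called without any single library other than W/O IL-10 replicate 3: without W/O IL-10 replicate 1 its log2 fold change was 0.58 (edgeR adjusted p = 0.0027), just under the fold change asked for, and without the others the adjusted p was 0.103 to 0.191.

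Klra1 encodes Ly49A, the inhibitory receptor after which the family was first described (ENSMUSG00000079853, chr6:130363917-130386874). It was at 14.3, 16.6 and 20.5 CPM W/O IL-10 and at 38.5, 29.0 and 30.8 CPM W/ IL-10. The groups were separate, and W/ IL-10 replicate 1 was the highest. The means of 17.2 ± 3.13 and 32.8 ± 5.07 CPM differed by 0.93 on the log2 scale (SE 0.16, edgeR adjusted p = 0.0247). The call was lost without W/O IL-10 replicate 2 and without any of the W/ IL-10 libraries, with adjusted p-values of 0.0566 to 0.121.

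Klra2 encodes Ly49B, an inhibitory receptor better known from myeloid cells, at a distance from the other members on the chromosome (ENSMUSG00000030187). Its level was 2.86, 3.22 and 3.91 CPM W/O IL-10 and 10.3, 7.89 and 8.62 CPM W/ IL-10, from 70 to 91 and from 178 to 213 counts. The lowest W/ IL-10 library was thus well above the highest W/O IL-10 library. The log2 fold change of 1.43 (SE 0.18, edgeR adjusted p = 0.00846) had a 95% interval of 1.01 to 1.84. Klra2 was not called without W/ IL-10 replicate 1 (adjusted p = 0.0556) or without W/ IL-10 replicate 3 (adjusted p = 0.0704).

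Since Ly49B is known from myeloid cells, the markers of such cells were read beside it. The summed level of the dendritic cell list was 29.4 to 33.0 CPM W/O IL-10 and 50.0 to 60.9 CPM W/ IL-10, most of it from Itgax, an integrin chain that activated T cells also carry and that was called upregulated (log2 fold change 1.09, edgeR adjusted p = 0.00383). Of the 7 genes on that list, 6 were analysed, 3 could be tested, and 1 was called. Of its other genes, Zbtb46 had 96 to 170 counts per library and was lower in every W/ IL-10 library, while Xcr1 had 85 to 147 counts and was higher in every W/ IL-10 library (log2 fold change 0.60, edgeR adjusted p = 0.184). Flt3 had 0 to 7 counts, Clec9a at most 1 and Siglech at most 1. The macrophage and monocyte list summed to 5.03 to 11.5 CPM W/O IL-10 and 4.97 to 5.29 CPM W/ IL-10, with no called gene among the 3 tested, Cd14 (49 to 111 counts per library), Lyz2 (17 to 88) and Adgre1 (13 to 66). Csf1r had 2 to 8 counts and Fcgr1 0 to 7. The part of such cells in the level of Klra2 was not tested.

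The remaining inhibitory members were Klra3, Klra6, Klra9 and Klra5, and none of them was called. Klra3 encodes Ly49C, a receptor for H2-K molecules (ENSMUSG00000067591, chr6:130323289-130337574). It had the highest fitted fold change of the 9 and a wide spread W/O IL-10, at 3.02, 6.94 and 10.5 CPM, against 18.8, 18.5 and 19.0 CPM W/ IL-10. The groups were separate, and the W/ IL-10 libraries lay close together while W/O IL-10 replicate 1 was the lowest of the 6. The log2 fold change was 1.46 (SE 0.34, edgeR adjusted p = 0.0732). Without W/O IL-10 replicate 1 it was 1.10 and called (edgeR adjusted p = 0.00299), and without W/O IL-10 replicate 3 it was 1.90 and called (edgeR adjusted p = 0.0272).

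Klra6, which encodes Ly49F (ENSMUSG00000061769, chr6:130013033-130026954), was at 3.18, 5.87 and 7.66 CPM W/O IL-10 and at 11.6, 9.18 and 11.3 CPM W/ IL-10. Klra9 encodes Ly49I, another receptor for H2-K molecules (ENSMUSG00000033024, chr6:130178675-130193112), and was at 1.75, 3.51 and 4.26 CPM against 7.23, 4.83 and 5.03 CPM. In both genes all W/ IL-10 libraries were higher than all W/O IL-10 libraries. Their log2 fold changes did not pass the test, at 0.94 for Klra6 (95% interval 0.32 to 1.57, edgeR adjusted p = 0.141) and 0.84 for Klra9 (0.13 to 1.56, edgeR adjusted p = 0.255). Klra5 encodes Ly49E, known from fetal NK cells and from lymphocytes of epithelia (ENSMUSG00000030173, chr6:129898996-129917650). It was the inhibitory member whose groups overlapped, with 3.14, 6.98 and 6.67 CPM W/O IL-10 and 9.51, 6.12 and 6.43 CPM W/ IL-10. The 95% interval of its log2 fold change ran from -0.29 to 1.08 around 0.39 (edgeR adjusted p = 0.598).

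**Figure D1:**
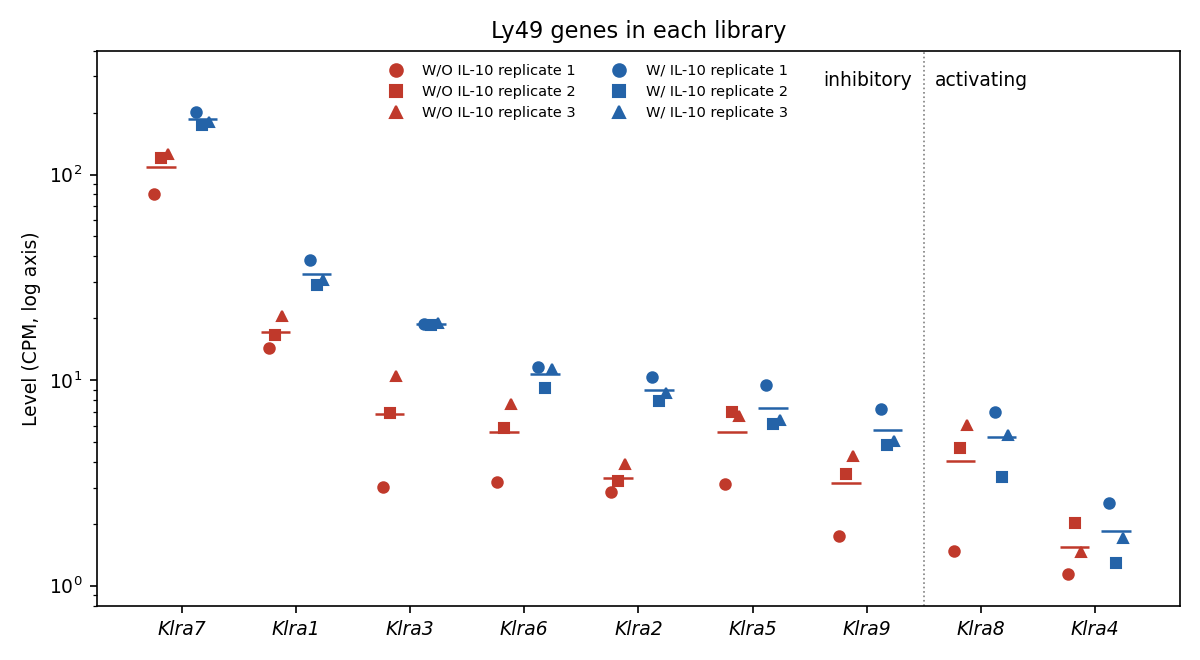
Level of each Ly49 gene in each of the 6 libraries, in CPM on a log axis, with red marks for W/O IL-10, blue marks for W/ IL-10, a marker shape for each replicate number and a short line at the group mean (n = 3). Inhibitory genes stand left of the dotted line, and 6 of the 7 have all blue marks above all red ones, while the marks of Klra5, Klra8 and Klra4 overlap.

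The activating receptors were low and uneven, as were some inhibitory ones. W/O IL-10 the mean of Klra8 was 4.05 ± 2.34 CPM, above those of the inhibitory Klra2 (3.33 ± 0.54) and Klra9 (3.18 ± 1.29). The inhibitory Klra3 was likewise uneven there, at 6.82 ± 3.74 CPM (SD, n = 3 each). Klra8 encodes Ly49H, which recognizes a cytomegalovirus protein on infected cells (ENSMUSG00000089727, chr6:130115226-130129898). The counts of Klra8 were 36, 113 and 140 W/O IL-10 and 145, 76 and 123 W/ IL-10. The lowest library was W/O IL-10 replicate 1 and the others of both groups lay intermingled, so the groups overlapped. The log2 fold change of 0.38 had a 95% interval of -0.65 to 1.40 (edgeR adjusted p = 0.748), and it was -0.036 without W/O IL-10 replicate 1. Klra4 encodes Ly49D, an activating receptor for H2-D molecules of other mouse strains (ENSMUSG00000079852, chr6:130043731-130067271). It was the lowest member in both groups, with 28, 49 and 34 counts W/O IL-10 and 52, 29 and 39 W/ IL-10, and here too the groups overlapped. Its log2 fold change was 0.25 (95% interval -0.52 to 1.02, edgeR adjusted p = 0.783) and -0.044 without W/ IL-10 replicate 1. For both genes the interval holds the change measured for Klra7, so that a change of that size could not be told from none with these libraries. The difference between activating and inhibitory members was not tested.

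**Figure D2:**
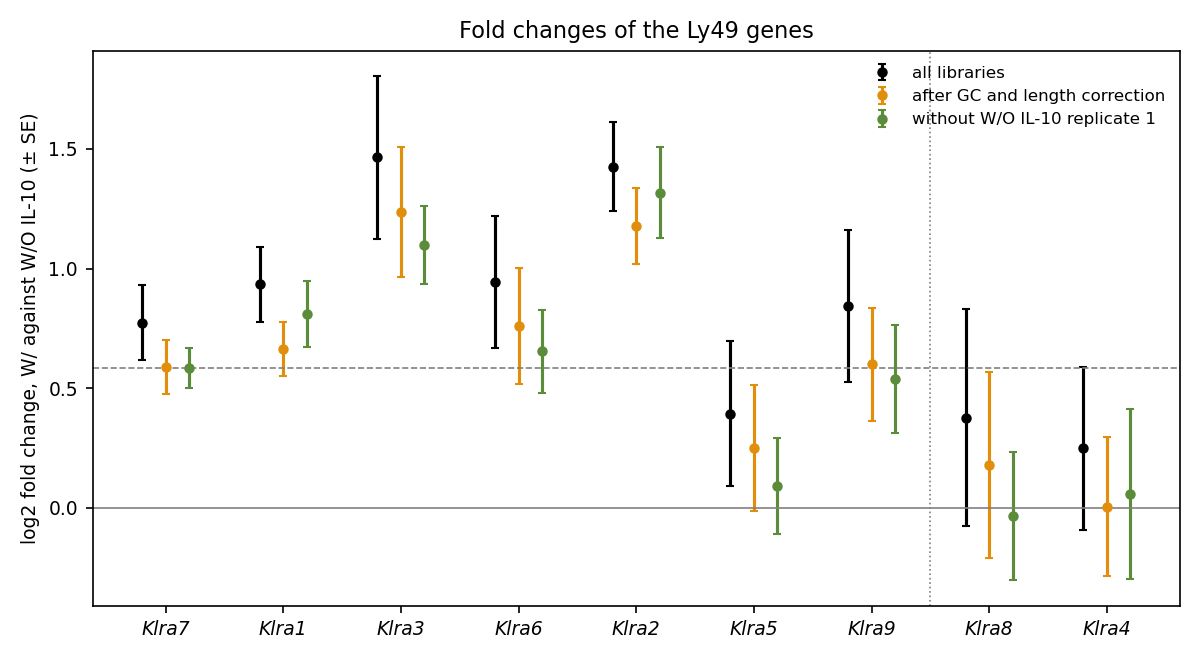
Log2 fold change of each Ly49 gene, W/ against W/O IL-10, with error bars of 1 SE, from all 6 libraries (black), with GC content and length corrected for (orange) and without W/O IL-10 replicate 1 (green). The dashed line marks a fold change of 1.5 and the dotted line separates inhibitory from activating genes: Klra2 and Klra3 stay above 1 under all of these settings, and Klra4 and Klra8 are at 0.01 and 0.18 after the correction.

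Summed over the 9 genes, the Ly49 level was 111, 171 and 187 CPM W/O IL-10 and 308, 255 and 269 CPM W/ IL-10. The groups were separate, with W/O IL-10 replicate 1 lowest and W/ IL-10 replicate 1 highest. The group means were 156 ± 39.9 and 277 ± 27.2 CPM (SD, n = 3 each), a ratio of 1.78, which was 1.55 without W/O IL-10 replicate 1. A read assigned to a wrong one of the 9 members does not change this sum. Reads exchanged with Ly49 genes or pseudogenes outside the 9, with which several members share sequence, would change it. Without Klra7 the sum was 30.9, 49.8 and 61.0 CPM W/O IL-10 and 106, 80.2 and 88.2 CPM W/ IL-10, so that the separation did not rest on the most abundant gene alone.

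Within the family, Klra7 held most of the counts in every library, with 72.2, 70.8 and 67.3% of the sum W/O IL-10 and 65.7, 68.6 and 67.2% W/ IL-10. Its share overlapped between the groups. Klra2 and Klra3 were the members whose share was higher in every W/ IL-10 library. The share of Klra2 was 2.57, 1.89 and 2.10% W/O IL-10 and 3.36, 3.09 and 3.20% W/ IL-10. The share of Klra3 was 2.72, 4.07 and 5.62% against 6.10, 7.27 and 7.06%. Klra1, the second in size, kept to 9.74 to 12.9% W/O IL-10 and 11.4 to 12.5% W/ IL-10, which overlapped.

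The activating genes Klra4 and Klra8 together made up 2.35, 3.93 and 4.01% of the Ly49 counts W/O IL-10 and 3.11, 1.83 and 2.63% W/ IL-10. The groups overlapped, and W/O IL-10 replicate 1 stood apart from the other two W/O IL-10 libraries. The exact 95% binomial intervals were 1.82 to 2.99% in W/O IL-10 replicate 1 and 1.495 to 2.21% in W/ IL-10 replicate 2, the lowest library of each group. These intervals cover counting error only. In CPM the activating pair was at 2.61, 6.69 and 7.49 W/O IL-10 and at 9.56, 4.66 and 7.09 W/ IL-10, whereas the inhibitory genes summed to 108, 164 and 179 CPM W/O IL-10 and 298, 251 and 262 CPM W/ IL-10.

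**Figure D3:**
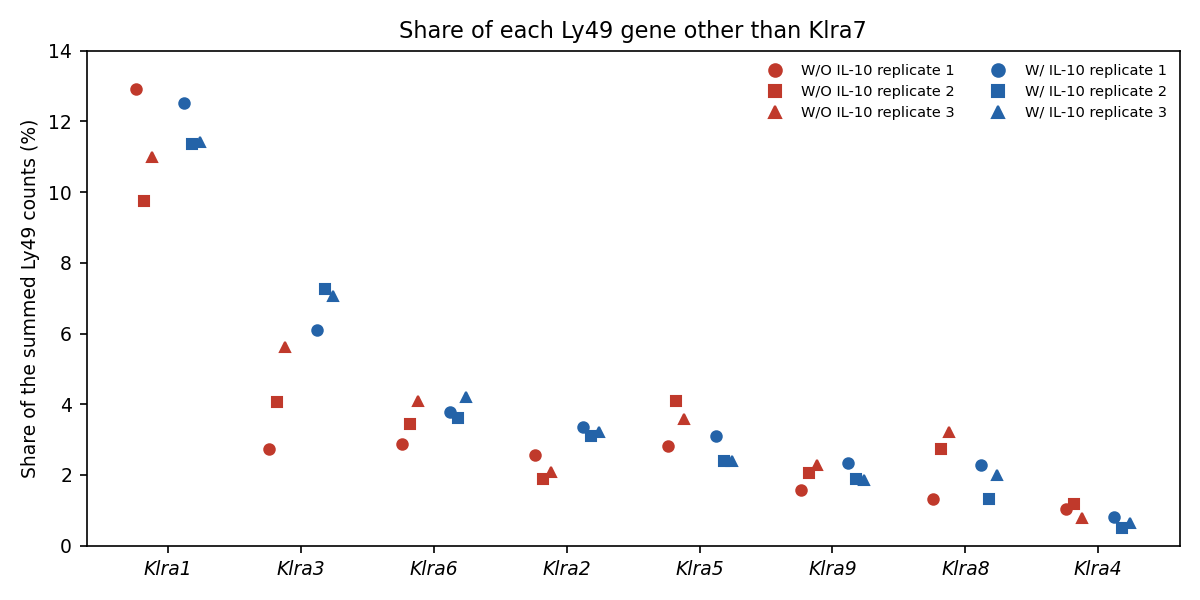
Share of each Ly49 gene in the summed Ly49 counts of a library, in percent, for the 8 genes other than Klra7, with red marks for W/O IL-10, blue marks for W/ IL-10 and a marker shape for each replicate number. The blue marks of Klra2 and Klra3 lie above all of their red marks, and the shares of Klra1 reach 12.9%.

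To compare levels between genes, CPM was divided by the length of each gene's joined exons in kilobases. W/O IL-10 the order was Klra7 (86.0 CPM per kb), Klra1 (9.72), Klra3 (5.51), Klra6 (4.99), Klra5 (4.004), Klra8 (3.44), Klra9 (2.48), Klra2 (1.76) and Klra4 (1.24). Klra7 was clear of the next gene, and all later neighbours in this order overlapped. W/ IL-10 the order was Klra7 (147 CPM per kb), Klra1 (18.6), Klra3 (15.2), Klra6 (9.59), Klra5 (5.26), Klra2 (4.72), Klra8 (4.47), Klra9 (4.46) and Klra4 (1.48). Here the neighbours overlapped between Klra5 and Klra2, Klra2 and Klra8, and Klra8 and Klra9, and the first 4 genes were each clear of the next. By group means Klra2 was 8th W/O IL-10 and 6th W/ IL-10, but it overlapped its neighbours in both orders, so this change of place is not resolved.

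Ly49 genes arose by duplication and resemble each other, so part of their reads cannot be assigned with certainty. Of the 50-base stretches of each gene's transcripts, 33.1% of Klra8, 31.5% of Klra9, 20.7% of Klra3 and 12.3% of Klra7 also occurred in another gene. The values were 4.68% for Klra4, 2.98% for Klra1, 2.62% for Klra6, 0.655% for Klra5 and 0 for Klra2. Klra2, with the smallest adjusted p-value of the family, was thus also the member that shared none. Klra8 shared most with the pseudogene Klra14-ps (20.4%) and with Klra9 (10.7%), and Klra3 shared most with Klra9 (13.5%).

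All of the shared stretches of Klra7 lay in the pseudogene Klra13-ps, which was looked at for this reason after its values were seen. Klra13-ps had 140, 235 and 304 counts W/O IL-10 and 540, 419 and 546 W/ IL-10, and was itself called upregulated (log2 fold change 1.27, SE 0.26, edgeR adjusted p = 0.0471). How many of these reads belong to Klra7 was not tested. Klra14-ps, the partner of Klra8, had 31 to 37 counts W/O IL-10 and 28 to 68 W/ IL-10, and its groups overlapped. Of the other Ly49 genes, Klra10 had 2, 4 and 7 counts W/O IL-10 and 11, 14 and 23 W/ IL-10 (log2 fold change 1.996, edgeR adjusted p = 0.124), and Klra17 had at most 5 counts in any library and was not tested.

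GC-poor and GC-rich genes deviated unequally between the libraries, and all 9 members are poor in GC, at 38.6 to 42.3% of the longest transcript. In W/O IL-10 replicate 1 the median deviation of tested genes from their mean over the libraries, on the log2 scale, was -0.48 at 36 to 40% GC and -0.15 at 40 to 45% GC, the classes that hold the members, and in W/ IL-10 replicate 1 it was 0.25 and 0.14. The 1623 other tested genes within the members' range of GC had a median log2 fold change of 0.16. Of them 0.739% were called upregulated and 17.4% had all W/ IL-10 libraries above all W/O IL-10 libraries. With GC content and length of the genes corrected for, their median was -0.002, 263 of all tested genes (1.76%) were called, and so were 4 members: Klra1 (log2 fold change 0.67, edgeR adjusted p = 0.0134), Klra2 (1.18, adjusted p = 0.00452), Klra3 (1.24, adjusted p = 0.0385) and Klra7 (0.59, adjusted p = 0.0227). The other members then had log2 fold changes of 0.76 for Klra6, 0.60 for Klra9, 0.25 for Klra5, 0.18 for Klra8 and 0.01 for Klra4, none past the test. With W/O IL-10 replicate 1 left out instead, the log2 fold change was 0.81 for Klra1 and 1.32 for Klra2, both called (edgeR adjusted p = 0.00671 and 0.0027), as well as 0.65 for Klra6, 0.54 for Klra9, 0.09 for Klra5 and 0.06 for Klra4, which were not called.

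**Figure D4:**
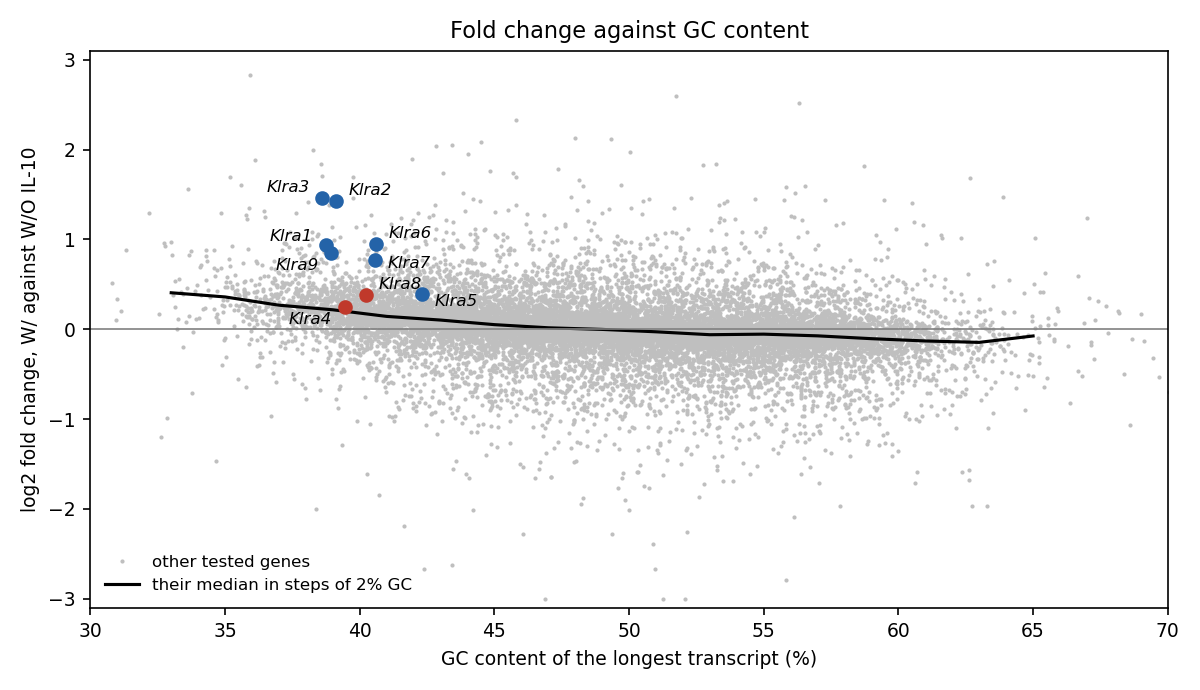
Log2 fold change, W/ against W/O IL-10, against GC content of the longest transcript in percent, for each other tested gene with an annotated transcript (grey), with the median of the grey genes in steps of 2% GC (black line), inhibitory Ly49 genes in blue and activating ones in red. The line falls from left to right, the blue marks of Klra1, Klra2, Klra3, Klra6, Klra7 and Klra9 lie well above it, and the marks of Klra4, Klra5 and Klra8 lie closer to it. The 3 genes whose fold change exceeds the axis are drawn at its edge, 18 genes of more extreme GC content lie outside it, and tested genes with no annotated GC content are not drawn.

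Other lectin-like receptor genes, with Klra10 and Klra17 of the Ly49 family among them, were read beside the 9 members. Of 15 such genes 14 were tested and 4 were called, all upregulated: Klrc1, the inhibitory receptor chain NKG2A (log2 fold change 1.31), Klrc2, its activating relative (1.35), Klrd1, the CD94 chain that pairs with both (1.23), and Klrk1, the activating receptor NKG2D (0.96). Their adjusted p-values in edgeR's test were 0.0147, 0.0322, 0.0357 and 0.0165. Among all tested genes 0.778% were called upregulated. Klrc1, Klrc2, Klrd1 and Klrk1 are poorer in GC than the Ly49 genes, at 32.7 to 36.4%. Tested genes of up to 36% GC had a median log2 fold change of 0.38 and a median deviation of -0.78 in W/O IL-10 replicate 1. The fold changes given here are not corrected for GC. With the GC and length correction, 4 genes were called among the related receptors, ligands, signal transduction genes and transcription factors. Whether they were the same 4 genes is not given here. Groups were separate for 8 genes with higher levels W/ IL-10, Klra10 among them, and for 2 with lower levels. The median log2 fold change of the list was 0.41. Of all tested genes 11.3% had separate groups with higher levels, and the share with lower levels was not computed. Klrc3 (1.43, edgeR adjusted p = 0.0695) and Klrb1a, an NKR-P1 receptor (-0.88, edgeR adjusted p = 0.0962), had separate groups in opposite directions without passing the test.

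The known ligands of Ly49 receptors showed no called gene among the 4 tested, and their median log2 fold change was -0.08. The log2 fold change was -0.18 for H2-K1, -0.11 for H2-D1, -0.05 for B2m and 0.07 for H2-M3, with edgeR adjusted p-values of 0.420 to 0.847. H2-K1 was lower in every W/ IL-10 library than in any W/O IL-10 library, and the groups of the others overlapped.

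Of 19 signal transduction genes, none was called, and the median log2 fold change was -0.09. Ptpn6, the phosphatase recruited by inhibitory Ly49 receptors, was at 128, 117 and 126 CPM W/O IL-10 and 140, 156 and 159 CPM W/ IL-10, with separate groups and a log2 fold change of 0.30 (edgeR adjusted p = 0.104). The adaptors of the activating receptors overlapped between the groups, with log2 fold changes of -0.42 for Tyrobp (edgeR adjusted p = 0.533) and -0.15 for Hcst (edgeR adjusted p = 0.799). The kinase gene Lck (0.40, edgeR adjusted p = 0.0921) and the phospholipase gene Plcg2 (0.31, edgeR adjusted p = 0.0943) had separate groups, both higher W/ IL-10. In the whole list, 4 of 19 genes had separate groups with higher levels, against 11.3% of all tested genes, and 2 with lower levels.

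Of 14 genes for transcription factors known for NK receptor expression or NK and T cell differentiation, none reached the fold change asked for together with the p-value. Past the adjusted p-value alone were Tbx21, the gene for T-bet, at 25.2, 21.6 and 24.8 CPM W/O IL-10 and 32.2, 32.6 and 32.9 CPM W/ IL-10 (log2 fold change 0.45, edgeR adjusted p = 0.0467), and Eomes, its relative, which fell by 0.51 on the log2 scale (edgeR adjusted p = 0.0176). Id2 had a log2 fold change of 0.40 with separate groups (edgeR adjusted p = 0.0571). Of the 14 genes, 3 had separate groups with higher levels W/ IL-10, a pattern of 11.3% of all tested genes. Another 4, Eomes among them, had separate groups with lower levels, for which no share of all genes was computed. The median log2 fold change of the list was -0.08.

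The marker genes were read to check the label. The T cell markers summed to 2239 to 2650 CPM W/O IL-10 and 2945 to 2996 CPM W/ IL-10. Thy1 made up much of this sum, with means of 1335 and 1658 CPM. Of the 6 genes none was called, 3 had separate groups with higher and 1 with lower levels W/ IL-10. The lower one was Cd5 (log2 fold change -0.47, edgeR adjusted p = 0.0467), the only T cell marker past the adjusted p-value. Cd4 was near absent, at 8 to 38 counts per library, but Cd8a was not, at 95.7 to 119 CPM W/O IL-10 and 138 to 168 CPM W/ IL-10 (log2 fold change 0.56, edgeR adjusted p = 0.0369), and Cd8b1 was called upregulated (0.67, edgeR adjusted p = 0.0306). At the RNA level the libraries thus go against the label as far as CD8 is concerned, and CD8 genes moved in the same direction as the Ly49 genes. The NK cell list summed to 749 to 777 CPM W/O IL-10 and 607 to 639 CPM W/ IL-10, most of it from Eomes, and without Eomes to 228 to 279 and 243 to 287 CPM, which overlapped. Of its 6 genes 1 was called, Ncr1, the NK receptor NKp46, as downregulated (-1.15, edgeR adjusted p = 0.0460). Eomes and Fcgr3 were also lower in every W/ IL-10 library, Cd244a and Itga2 were higher in every one, and Klrb1c overlapped between the groups at 23.8 to 39.5 CPM. The B cell list was uneven, at 62.2 to 153 CPM W/O IL-10 and 59.3 to 105 CPM W/ IL-10. The part of CD8-bearing or other cells in the Ly49 levels was not tested.

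Over the 6 libraries, the log2 level of each member was compared with that of the other members summed. Pearson's r was 0.992 for Klra7, 0.981 for Klra6, 0.976 for Klra3, 0.968 for Klra9, 0.956 for Klra1 and 0.939 for Klra2, and lower for Klra5 (0.820), Klra8 (0.752) and Klra4 (0.584). Among genes outside the family, those with the pattern most like the summed Ly49 level over the 6 libraries were Actr2 (r = 0.999), Rnmt (0.998), Fam111a (0.998), Parpbp (0.996) and Gm37353 (0.996). Both sets of values describe 6 points from 2 groups that share the GC differences between libraries, and the 5 genes lie at 35.8 to 43.0% GC.

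The promoters of 3 members are shown as examples: that of the abundant Klra7, that of Klra2 with its 2.69-fold change and that of Klra8, an activating gene that was not called. Whether the changes of these genes differ was not tested. Each is the 250 bases before the start of transcription in RefSeq (GRCm38.p6, minus strand), at chr6:130233323-130233572 for Klra7, chr6:131247363-131247612 for Klra2 and chr6:130129899-130130148 for Klra8. Capitals mark a match on either strand to TTCNNNGAA, the palindrome bound by STAT factors, to TGTGGT, bound by RUNX factors, or to CTTTGA, bound by TCF factors.

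Klra7: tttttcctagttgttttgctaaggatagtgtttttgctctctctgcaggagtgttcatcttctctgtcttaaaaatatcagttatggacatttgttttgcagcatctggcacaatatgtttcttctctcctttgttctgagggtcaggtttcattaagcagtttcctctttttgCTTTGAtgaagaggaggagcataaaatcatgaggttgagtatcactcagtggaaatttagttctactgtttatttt
Klra2: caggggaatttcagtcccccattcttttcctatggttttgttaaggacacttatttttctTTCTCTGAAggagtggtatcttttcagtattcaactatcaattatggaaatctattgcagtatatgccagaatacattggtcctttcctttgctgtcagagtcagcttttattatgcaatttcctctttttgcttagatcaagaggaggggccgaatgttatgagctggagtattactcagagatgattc
Klra8: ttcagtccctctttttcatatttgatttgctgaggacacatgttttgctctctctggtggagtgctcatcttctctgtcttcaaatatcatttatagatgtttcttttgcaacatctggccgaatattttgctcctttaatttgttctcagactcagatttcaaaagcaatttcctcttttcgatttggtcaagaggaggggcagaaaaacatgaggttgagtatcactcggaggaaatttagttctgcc

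The match to CTTTGA in Klra7 began 76 bases before the start, and the match to TTCNNNGAA in Klra2 began 190 bases before it. Among all 9 members, Klra2 alone held TTCNNNGAA, Klra1 alone held TGTGGT, and Klra6 and Klra7 held CTTTGA, against 7.02%, 14.05% and 13.8% of the 32851 promoter windows of all genes. The motifs do not overlap one another in these windows, and a match is a description of the letters and not a binding site. Of a gene's windows, the one whose start lay nearest to the GENCODE start of the gene was read. For Klra5 it lay 4426 bases away, and Klra7 and Klra8 each had 2 windows, so the matches depend on the start chosen. The promoters of Klra7 and Klra8 were 81.6% identical over 239 aligned bases, and those of Klra2 and Klra7 76.2% over 227. Like the transcripts, the 9 promoters were poor in GC, at 32 to 47.2% against a median of 52.4% for all windows.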

How the data were processed

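RNA from sorted cDNT kept W/ IL-10 or W/O IL-10 was sequenced in 3 libraries per group. Raw read counts of the 6 libraries, which the authors deposited as a single table without normalization, are listed under Ensembl identifiers, of which 29332 were found in the GENCODE M21 annotation of GRCm38. The submitters' processing notes name HISAT2, HTSeq and GRCm38, whereas the methods name TopHat, Cufflinks and UCSC annotation. The labels name a TruSeq and the methods a NEBNext library kit. The design text speaks of duplicates, while 3 libraries per group are listed. Versions, counting mode and use of strand are not given in the sources used here. How reads matching several Ly49 genes were counted therefore remains unknown, and the levels of members with shared sequence depend on it.

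Total counts were 21619420 to 23967088 per library. The floor of 3 counts was 0.122 to 0.146 CPM and covers counting error only. Library sizes were scaled by TMM (factors of 0.953 to 1.03) in edgeR 4.0.16 under R 4.3.3. Genes reaching 10 counts in 3 or more libraries were tested with glmQLFit and glmQLFTest, with Benjamini-Hochberg adjustment over all of them. The SE is the log2 fold change divided by the square root of F. The GC and length correction used splines with 5 degrees of freedom per library on log2 CPM (prior count 2) as offsets. The alternatives, with limma 3.58.1 and DESeq2 1.42.0 among the tools, are given in the closing section. Of these steps, the main edgeR fit was tested on simulated data with known changes. Python 3.11.15 read the annotation and sequences and drew the plots, with pandas 2.3.3, Biopython 1.88 and matplotlib 3.10.9.

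The members and the lists of related genes and markers were chosen with earlier results of these data known. Named were all members and, of the related lists, the called genes, those with an adjusted p-value under 0.05, the 4 ligands, Tyrobp, Hcst and Ptpn6, up to 5 further genes with separate groups by unadjusted p, and the 5 genes most like the summed level. Klra13-ps and Klra14-ps were added after their values were seen. Cd209a, on the dendritic cell list, was not analysed here, and the result for 1 marker gene is not reported here.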

Additional observations from a re-analysis of the deposited data

How the results depend on the processing

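The number of Ly49 genes called, 3 of 217 genes in all, was 3 with upper-quartile normalization (218 in all) and with at least 10 counts in every library (206), 4 with DESeq2 (359), with limma-voom (205) and with the GC and length correction (263), 6 without a filter on low counts (639) and 0 when a 1.5-fold change was itself the null (15). For the related genes, 4 with all libraries, it was 6 with DESeq2 and without a filter, 5 with at least 10 counts in every library, 3 with the replicate block and 0 with the 1.5-fold null. With 1 library left out, 0 to 4 Ly49 genes and 0 to 4 related genes were called, of 35 to 254 genes in all. Leaving out W/ IL-10 replicate 1 or 3 left no Ly49 gene called, with 57 and 35 genes in all. Fewer libraries entered these fits. Klra2 was called under 13 of the 16 settings, the one reported included, Klra1 under 11, Klra7 under 9 and Klra3 under 6.

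No source states that the replicate numbers pair the libraries. In their deviations from the group means, same-numbered libraries correlated at 0.0524, -0.0573 and 0.114, and differently numbered ones at -0.106 to 0.0409. Deviations from a mean of 3 libraries depend on one another, so these values cannot settle whether the libraries are paired. With the replicate number as a block, 2 members of 196 genes in all were called, and the adjusted p of Klra7 was 0.0630. With the block and the GC and length correction together, 5 of 331 were called, and the log2 fold change of Klra4 was -0.0052. With 1 library left out it was -0.044 to 0.49, below 0 without W/ IL-10 replicate 1, and that of Klra8 was -0.036 to 0.76, below 0 without W/O IL-10 replicate 1. All other log2 fold changes of the members stayed above 0 under the settings run. The ratio of the summed levels was 1.76 with upper-quartile normalization and 1.55 to 1.97 with 1 library left out.

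At 21619420 to 23967088 counts per library, the lowest member, Klra4, rested on 28 to 52 counts, and the widest interval was that of Klra8.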
